A study of Rattus norvegicus with 24 samples.

Results

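Hif1a and Vegfa, the genes of a hypoxia-regulated transcription factor and of an angiogenic growth factor, were followed in the left and right ventricles of rats labelled DAAO and CTL. They are 2 of the 32883 Ensembl gene numbers in the deposited tables, ENSRNOG00000008292 (Hif1a) and ENSRNOG00000019598 (Vegfa), and both were measured in all 24 libraries. Their names were given together with these identifiers, since neither the tables nor the reference used here pairs symbols with Ensembl numbers. The rats, 12 in number and of strain WI, carry the label CTL (6, read as control) or DAAO (6), and each animal number has 1 sample of left ventricle plus septum and 1 of right ventricular free wall. D-amino acid oxidase, commonly shortened to DAAO, yields hydrogen peroxide when it oxidises D-amino acids and serves to impose oxidative stress on chosen cells. By its title, the series concerns chemogenetic heart failure. The sources used here do not give how the enzyme was delivered, its substrate, the treatment of CTL rats, or age and sex.

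HIF-1α, the protein of Hif1a, is the oxygen-regulated subunit of the hypoxia-inducible factor HIF-1. In oxygen, prolyl hydroxylases mark it for destruction through the von Hippel-Lindau protein, so its activity is set largely by protein stability and the level of Hif1a mRNA does not by itself report it. When stabilised, it pairs with ARNT and binds hypoxia response elements in genes such as Vegfa. VEGF-A is secreted, in the heart to a large part by cardiomyocytes, and acts on receptors of endothelial cells, where it maintains and extends the capillary bed.

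The promoter-proximal sequences of both genes are shown because HIF-1 binding to DNA is the textbook link between them. They are RefSeq sequences of assembly GRCr8, another build than the Rnor_6.0 of the deposited data, which were matched by symbol. The first Vegfa window is the 250 bases before the annotated start, chr9:22452604-22452853, plus strand, with the GC boxes GGGCGG, a motif bound by Sp1-type factors, in capitals.
Vegfa: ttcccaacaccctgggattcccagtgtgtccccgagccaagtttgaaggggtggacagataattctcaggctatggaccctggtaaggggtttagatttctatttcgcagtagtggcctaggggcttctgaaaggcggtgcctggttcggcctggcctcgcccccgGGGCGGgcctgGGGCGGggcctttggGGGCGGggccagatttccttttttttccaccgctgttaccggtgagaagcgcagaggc
It held 3 GC boxes, between 84 and 58 bases before the start, and 0 matches to the core of the hypoxia response element, ACGTG or GCGTG, searched on both strands. A second Vegfa window, before a start further into the gene at chr9:22460028-22460277, held 0 GC boxes and 0 core matches. The Hif1a window, chr6:98359648-98359897, plus strand, held 0 GC boxes and 3 core matches, of which the first 2 are the same palindrome read on each strand. Stretches of 30 bases around them, at chr6:98359657-98359686 and chr6:98359722-98359751, are shown with the core in capitals.
Hif1a, palindrome: cacacagacgagCACGTGagctgggcagct
Hif1a, further match: tggctgagagcaACGTGggctggggtgggg
Among all 33469 promoter windows of this length, 36.7% held a core match and 30.5% a GC box. A match is a description of letters and not a binding site, and the absence of one in this window says nothing of sites further away.

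Left ventricular libraries held 15363539 to 23263897 recovered reads and right ventricular ones 13280705 to 18777633. Hif1a rested on 578 to 1458 reads per library, and Vegfa on 7054 to 15343 in the left and 1824 to 3800 in the right ventricle. Counting error, taken as the Poisson SD of those reads, was therefore at most 4.16% of a Hif1a value and 2.34% of a Vegfa value, which is below the spread between animals in every group. The CTL animals C_7000 and C_7005 (named as in the deposited tables, with D_ for DAAO) stood apart. On a scale over all tested genes running from 0, the mean of the remaining CTL animals, to 1, the DAAO mean, they lay at 0.42 and 0.81 in the left and at 0.44 and 0.73 in the right ventricle. The other 4 CTL animals lay at -0.06 to 0.04 in the left and -0.09 to 0.12 in the right ventricle. They centre on 0 because their own mean sets it, while C_7000 and C_7005 had no part in setting the scale. DAAO animals lay at 0.69 to 1.28 and 0.69 to 1.35. C_7005 was thus inside the DAAO range in both ventricles, and C_7000 between the groups. All DAAO numbers are higher than all CTL numbers, so an effect of the group and of an unlabelled cohort cannot be told apart.

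In the left ventricle Vegfa was lower in every DAAO animal than in every CTL animal. Its normalized count (reads divided by 1 size factor per library) ranged in CTL from 10764 through a median of 14237 to 15402, and in DAAO from 6499 through a median of 7020 to 8700. The groups did not overlap: the lowest CTL library, that of animal C_7005, was still 1.24-fold above the highest DAAO library. The CTL mean was 13807 ± 1687 and the DAAO mean 7364 ± 962 (SD, n = 6 each). On the log2(value + 1) scale Vegfa fell by 0.91 (SE 0.11, 95% interval -1.14 to -0.68, limma adjusted p = 5.06e-05). DAAO left ventricles thus held 0.53 of the CTL level (interval 0.46 to 0.62). Of the 14041 genes tested in this ventricle 37.3% were called in either direction, and all 6 DAAO libraries lay below all 6 CTL libraries for 8.28%. A fall at least as large was found for 4.34% of them. Of the 343 tested genes within 2-fold of its mean normalized count, which is not corrected for gene length, 134 were called lower and 69 were called higher. In bulk tissue, fewer cells that make an mRNA and less of it per cell cannot be told apart.

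Without animals C_7000 and C_7005 the left ventricular fall of Vegfa was -1.01 on the log2 scale (SE 0.10, limma adjusted p = 1.44e-05). They were picked from these same data for lying nearest DAAO, so leaving them out tends to widen group differences. Without them 6707 of 14017 genes were called. With all libraries brought to equal totals, which shifted the median over all genes from 0.01 to 0.21 on the log2 scale, the fall of Vegfa was -0.71 (SE 0.07, limma adjusted p = 8.29e-06). Relative to those medians the values were the same, -0.92 under both scalings. Scaling each library by 1 factor shifts all genes alike, so this sameness follows from the method and is no separate support.

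**Figure D1:**
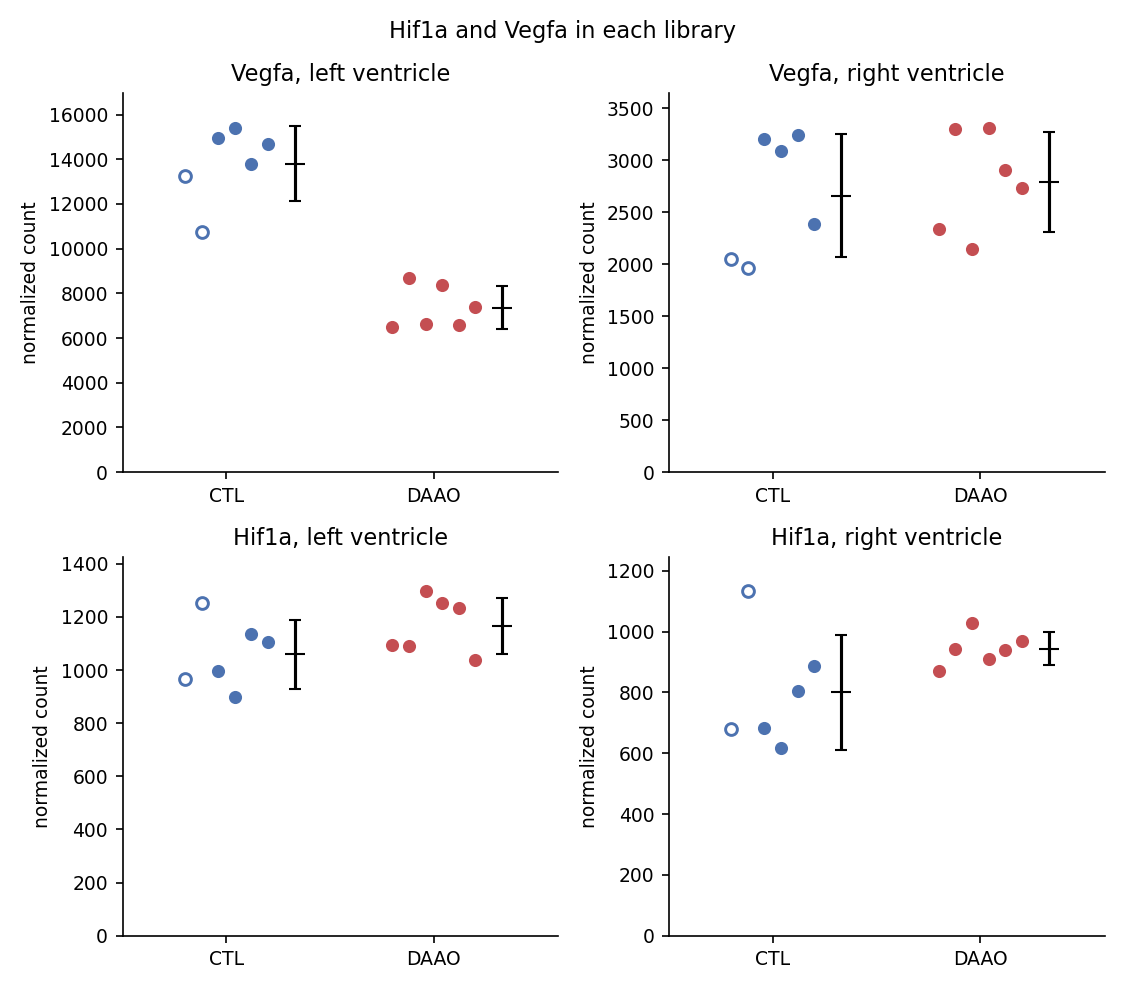
Normalized counts (vertical axes, from 0) of Vegfa (top) and Hif1a (bottom) in each left and right ventricular library, CTL in blue and DAAO in red, with open circles for CTL animals C_7000 and C_7005 and black bars for the mean ± SD (n = 6). Vegfa separates the groups in the left ventricle, at most 8700 in DAAO against at least 10764 in CTL, while the groups overlap in the other panels.

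In the right ventricle Vegfa did not pass the test. It ranged from 1963 through a median of 2736 to 3243 in CTL and from 2148 through a median of 2816 to 3309 in DAAO. Each group had 4 of 6 libraries within the range of the other. With means of 2656 ± 591 and 2787 ± 482 (SD, n = 6 each), the estimate was 0.08 on the log2 scale (SE 0.16, limma adjusted p = 0.728). Its 95% interval, -0.26 to 0.42, corresponds to 0.84 to 1.34 of the CTL level, and so does not reach the left ventricular value. Among the 13489 genes tested here 26.5% were called in either direction. The lowest CTL values were again those of animals C_7005 and C_7000, at 1963 and 2049, and without them the log2 fold change was -0.10 (limma adjusted p = 0.620). With equal totals it was 0.33 (SE 0.13, limma adjusted p = 0.0680), or 0.06 above the median of all genes under that scaling.

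Hif1a, in contrast to Vegfa in the left ventricle, showed small differences with overlapping groups in both ventricles. In the left it ranged from 898 through a median of 1051 to 1252 in CTL and from 1040 through a median of 1164 to 1296 in DAAO, with 5 of 6 DAAO libraries inside the CTL range. Means of 1059 ± 129 and 1167 ± 105 (SD, n = 6 each) differed by 0.14 on the log2 scale (SE 0.09, limma adjusted p = 0.210). The 95% interval of this log2 value was -0.04 to 0.33, in a ventricle where 37.3% of genes were called. A 2-fold change of Hif1a mRNA in either direction lies outside it.

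In the right ventricle Hif1a ranged from 617 through a median of 745 to 1132 in CTL and from 871 through a median of 941 to 1030 in DAAO. All 6 DAAO values lay above the CTL median and inside the CTL range, whose upper end was set by animal C_7005 alone; the next highest CTL library stood at 887. The estimate on the log2 scale was 0.27 (SE 0.13, 95% interval -0.02 to 0.55, limma adjusted p = 0.146), from means of 801 ± 189 and 944 ± 53.9 (SD, n = 6 each). The call depends on that animal. Without it Hif1a was 0.37 higher on the log2 scale (SE 0.11, limma adjusted p = 0.0176), and without animals C_7000 and C_7005 together it was 0.35 (limma adjusted p = 0.0377). Calls over all genes went from 3574 of 13489 to 4252 of 13485 and to 4143 of 13494. These animals were picked from these same data as the CTL animals nearest DAAO. Wider group differences without them therefore follow in part from that choice. Hif1a also passed the threshold with all libraries scaled to equal totals, at 0.35 in the left (limma adjusted p = 0.0302) and 0.51 in the right ventricle (limma adjusted p = 0.0142). Under that scaling 5956 of 14041 genes were called in the left and 4735 of 13489 in the right ventricle. That scaling moved the median of all genes to 0.21 and 0.27. Relative to the median Hif1a stood at 0.13 in the left and 0.25 in the right ventricle, against 0.13 and 0.24 with the deposited scaling. A shift common to all genes leaves such relative values in place by itself, so they are no separate evidence.

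Animal C_7005 held the lowest Vegfa and the highest Hif1a value of the CTL group in both ventricles. Its Hif1a values, 1252 in the left and 1132 in the right ventricle, lay within or above the DAAO range, and its left ventricular Vegfa lay between the groups.

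**Figure D2:**
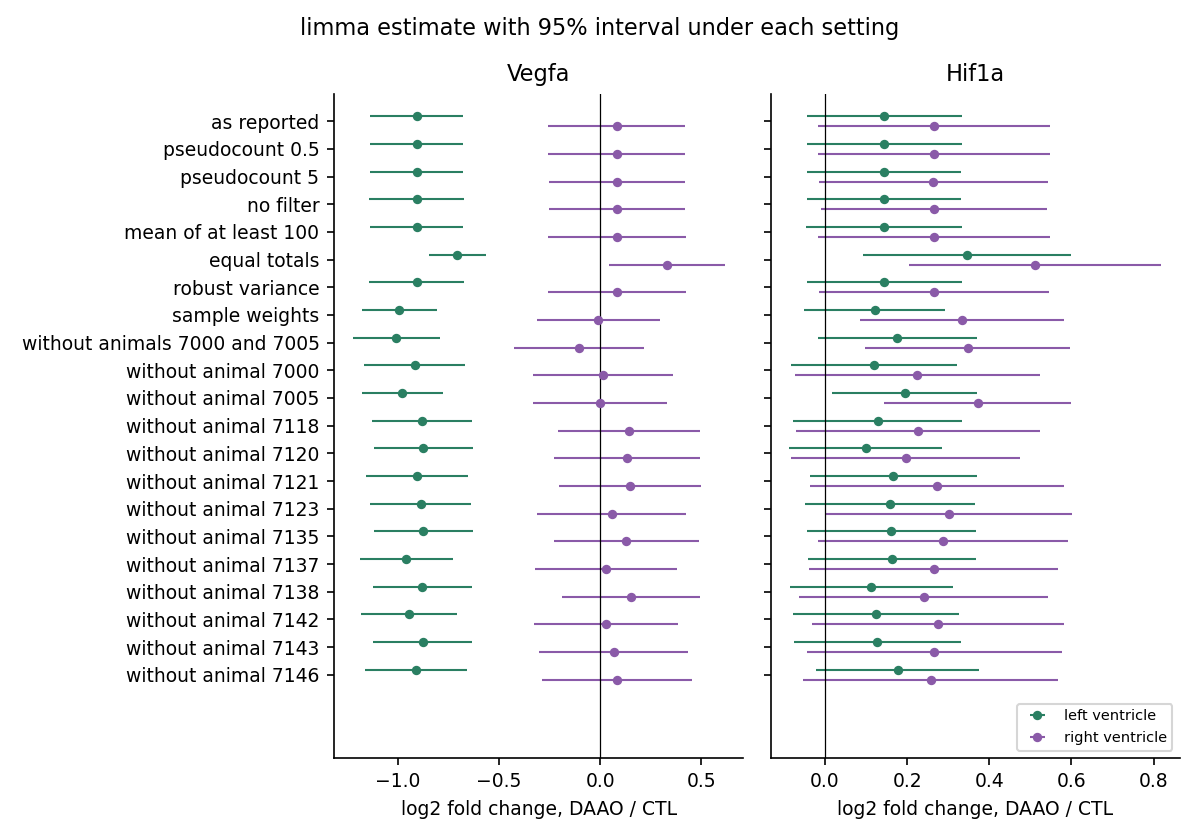
Log2 fold change of DAAO over CTL (horizontal axes) for Vegfa and Hif1a, left ventricle in green and right in purple, with the 95% interval of the limma fit, as reported and under each other setting (rows). The left ventricular Vegfa estimate stays between -1.01 and -0.71 in these fits, and the Hif1a estimates stay above 0.

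A test of the difference between the ventricles took the left minus the right log2 fold change from 1 limma model of the 24 libraries. This model treated the left and right libraries of an animal as independent. For Vegfa the difference was -0.99 (SE 0.20, 95% interval -1.39 to -0.58, limma adjusted p = 0.00857), so that the DAAO-to-CTL ratio in the left ventricle was 0.50 of that in the right (interval 0.38 to 0.67). Only 2.93% of the 13344 genes tested in both ventricles were called, and 57 genes, Vegfa included, had a p at or below that of Vegfa. With animals entered as a block the model called 10.2% of genes, 1360 in place of 391, and Vegfa among them (limma adjusted p = 0.000537). The count of 391 moved by over 1.5 times when animal C_7000, C_7118, C_7120, D_7135, D_7137, D_7138, D_7142, D_7143 or D_7146 was left out, down to 85 without D_7146 and up to 616 without D_7137. Vegfa was called in each of the 12 fits that left out 1 animal, at limma adjusted p values from 0.00748 to 0.0358. For Hif1a the difference was -0.12 (SE 0.16, 95% interval -0.45 to 0.21, limma adjusted p = 0.770).

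**Figure D3:**
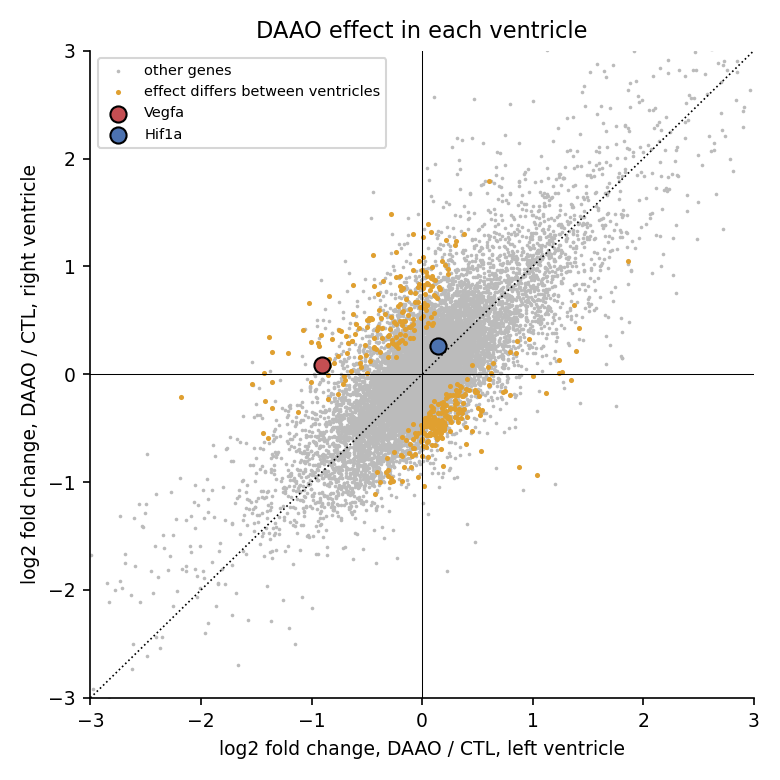
Log2 fold change of DAAO over CTL in the left (horizontal) and right ventricle (vertical) for the genes tested in both, with orange points for the 391 genes whose effect differed between the ventricles and a dotted line of equal effects; 101 genes outside ±3 are not drawn. Vegfa lies at -0.91 and 0.08, far from the line, and Hif1a at 0.14 and 0.27, close to it.

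The level itself was set side by side in the 2 ventricles of each animal. Because the tables were normalized separately, each value was divided by its library's own total and multiplied by 1000000 (CPM), and the levels of the chambers were not tested against each other. This makes the level a share of the library, and the chambers cannot be told apart from anything that differed between the 2 sets of libraries. In CTL, Vegfa stood at 719 ± 57.6 CPM in the left and 154 ± 31.2 in the right ventricle (SD, n = 6), and in DAAO at 440 ± 27.3 and 191 ± 21.2. The left-to-right ratio of Vegfa ranged in CTL from 3.60 through a median of 4.79 to 6.06, and in DAAO from 2.08 through a median of 2.23 to 2.80. Vegfa was thus higher on the left in all 12 animals, and every DAAO ratio lay below every CTL ratio.

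A higher left share in all 6 CTL animals was found for 29.1% of 13066 genes, and in all 6 DAAO animals for 23.1%, but a median CTL ratio of at least 4.79 for only 0.880% of 13290 genes. All DAAO ratios lay below all CTL ratios for 2.35% of genes. A test of the groups on this ratio was added after seeing the data: the mean left minus right log2 share of Vegfa was 2.24 in CTL and 1.21 in DAAO (exact permutation p = 0.00216, two-sided, the smallest p that 6 against 6 can give). Groups that do not overlap give this p by themselves, so it adds nothing to the separation already described. By mean share, the order of Vegfa levels was left CTL, left DAAO, right DAAO and right CTL. The right ventricular groups overlapped, and the others did not overlap with their neighbours.

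Hif1a differed little between the chambers. Its share was 55.7 ± 9.95 CPM in the left and 46.8 ± 11.9 in the right ventricle of CTL, and 70.4 ± 9.56 and 65.6 ± 7.12 in DAAO (SD, n = 6 each). The left-to-right ratio of Hif1a ranged from 1.08 through a median of 1.21 to 1.33 in CTL, and from 0.887 through a median of 1.09 to 1.20 in DAAO. All 6 CTL and 5 of 6 DAAO animals were higher on the left, with DAAO animal D_7146 the exception. The median ratio over all genes was 1.09 in CTL and 1.05 in DAAO, so Hif1a lay near the bulk of genes. Its left minus right log2 share was 0.27 in CTL and 0.10 in DAAO (exact permutation p = 0.0823, two-sided). By share, the Hif1a levels of all 4 groups overlapped with their neighbours in order.

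**Figure D4:**
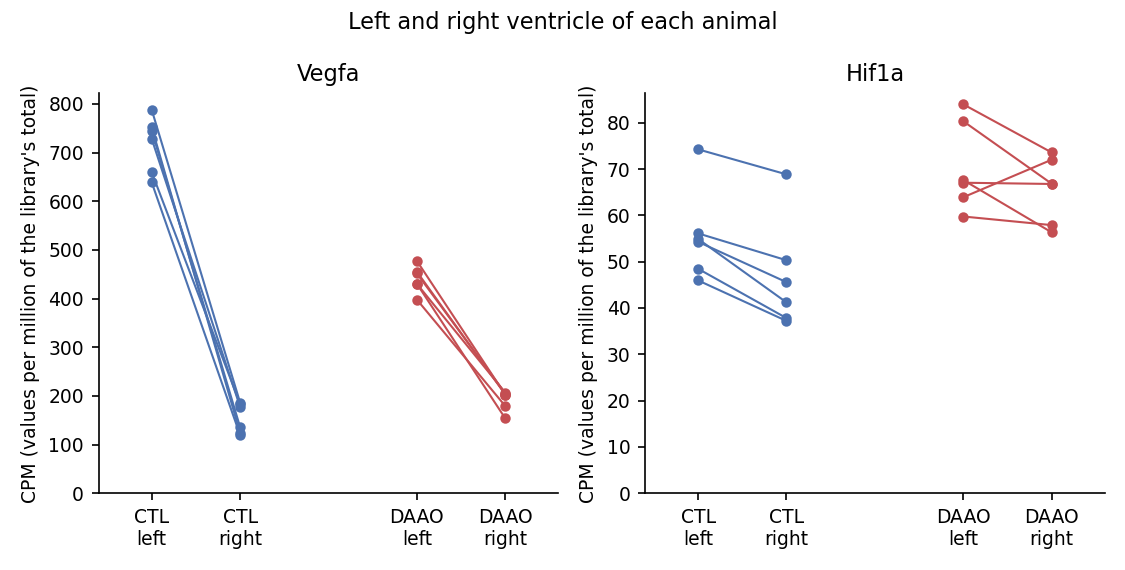
CPM, values scaled to the library's own total (vertical axes, from 0) for Vegfa and Hif1a, with a line joining the left and right ventricular library of each animal, CTL in blue and DAAO in red. The Vegfa lines fall from 639 to 788 on the left to 119 to 186 on the right in CTL, and from 398 to 477 to 153 to 207 in DAAO.

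Across the 6 animals of a group, 8 relations were computed on log2(value + 1): Hif1a against Vegfa in each of the 4 groups, and each gene in the left against the right ventricle in CTL and in DAAO. Hif1a of the left and right ventricle went together in CTL (Pearson r = 0.96, exact permutation p = 0.00417, adjusted p = 0.0333 over the 8 relations). Spearman's rho was 0.94 (exact permutation p = 0.0167, adjusted p = 0.133), and r was 0.89 without the 2 animals farthest from the median. In DAAO the same r was 0.33 (rho 0.03, exact permutation p = 0.535 for r and 1.0 for rho), and the difference between the groups was not tested. The pairing of left and right libraries was less sure in CTL: over all genes, C_7118, C_7120 and C_7123 did not match their own right ventricle best. For Vegfa, r between the ventricles was 0.73 in CTL and 0.82 in DAAO (rho 0.60 and 0.66), neither past the threshold (exact permutation p = 0.0639 and 0.0611 for r, adjusted p = 0.150 for both). These r were 0.50 and 0.39 without the 2 farthest animals, and 0.23 and 0.49 with equal totals. Hif1a against Vegfa gave a negative r in every group. The strongest was -0.73 in the left ventricle of CTL (rho -0.66, exact permutation p = 0.075 and 0.175, adjusted p = 0.150 and 0.467). This r was 0.19 without the 2 libraries farthest from the Hif1a median, a step that also narrows the Hif1a range and leaves few libraries. In the right ventricle of CTL r was -0.56 (rho -0.31, exact permutation p = 0.243 and 0.564), and 0.05 without the 2 farthest. In DAAO it was -0.21 in the left (rho -0.20, exact permutation p = 0.639 and 0.714) and -0.31 in the right ventricle (rho -0.37, exact permutation p = 0.568 and 0.497). Without the 2 farthest animals these DAAO values were -0.02 and -0.78, and with equal totals -0.47 and -0.57, so r moved in both directions with the animals and the scaling.

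The genes most like each member were found by the lower of the Pearson correlations over the 12 left and the 12 right ventricular libraries, a description in which group differences and shared libraries take part. Chosen on these same libraries, they give no separate evidence of a group difference. The gene most like Vegfa was ENSRNOG00000005513, at r = 0.92 in the left and 0.87 in the right ventricle among 13343 genes. Its normalized count ranged in the left ventricle from 3739 to 4842 in CTL and from 3373 to 3675 in DAAO, and in the right from 621 to 1202 in CTL and from 817 to 1368 in DAAO. It fell in the left ventricle by 0.32 on the log2 scale (limma adjusted p = 0.00243), with no overlap between the groups, as for 8.28% of genes tested there. Its right ventricular log2 fold change was 0.35 (limma adjusted p = 0.181), and the difference between the ventricles did not pass the threshold (-0.67, limma adjusted p = 0.0780). For Hif1a it was ENSRNOG00000001052, at r = 0.82 and 0.88. That gene rose in the right ventricle by 0.85 on the log2 scale (limma adjusted p = 0.0324) and had a log2 fold change of 0.13 in the left (limma adjusted p = 0.483), and the difference between the ventricles did not pass the threshold (-0.72, limma adjusted p = 0.241).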

How the data were processed

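Each ventricle has its own table, in which the authors deposited a signal per gene and library: read counts scaled by a size factor. The submitters' processing notes name the aligner STAR 2.7.0a, FastQC, DESeq2 1.26.0 and the build Rnor_6.0. The sources used here name no read counter, annotation or strand setting, so overlapping or antisense genes cannot be told apart. RNA came from frozen hearts by Trizol and was sequenced as paired ends, per the labels' protocols. Since 100% of values above 0 were whole multiples of the lowest one of their library (tolerance 1e-06), division gave back the reads. In the left library of C_7000 1 read is worth 1.01, so near 1 that this step alone does not set its values apart from rounded ones; they are not whole numbers and were treated like the rest. No library repeated another of its group within sampling noise (chi-square over its degrees of freedom at least 11.6).

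Genes with a mean value of at least 10 were tested two-sided with limma 3.58.1 (R 4.3.3, trend) on log2(value + 1), which understates changes of low genes, and p-values were Benjamini-Hochberg adjusted over all of them (threshold 0.05). The ventricles' effects were compared over 24 libraries and 4 group means. Alternatives were the pseudocount, filter, scaling, robust and weighted fits, edgeR 4.0.16 and DESeq2 1.42.0 on recovered reads, exact permutation tests and leaving out animals. The alternatives for left-to-right ratios and correlations were added after seeing the data. The fits were tested on simulated data. Label numbers were read as animals, which no label says, so p-values measure the spread between these samples. As a pairing check, deviations from the group mean were correlated between same-numbered libraries: r was 0.06 to 0.79, median 0.55, and at or under 0.1 for C_7118 and C_7120, and 9 of 12 animals matched their own right ventricle best. Those that did not were C_7118, C_7120 and C_7123, all of them CTL.

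The members, lists and settings were chosen with earlier results of these data known. The genes to be named were Hif1a, Vegfa, the gene most like each, and members past the threshold of lists of HIF subunits, hydroxylases, HIF targets, and VEGF ligands and receptors. None of the 47357 reference genes has an Ensembl number (0 matches), so these lists and cell type markers were not analysed here, and the labelled tissue was not checked against markers.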

Additional observations from a re-analysis of the deposited data

Results flagged for a closer look

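For Vegfa the DAAO effect in the left ventricle differed from that in the right when the difference was tested directly: the left minus the right log2 fold change was -0.99 (limma adjusted p = 0.00857), and the left-to-right ratios of all 6 DAAO animals lay below those of all 6 CTL animals. The difference was called for 2.93% of genes tested (10.2% with the animal as a block), and ratios were separated in this way for 2.35%. Of 12 groups of 6 values tested, 8 of normalized counts and 4 of left-to-right ratios, 0 passed Dixon's 95% limit, which in groups this small only a wide gap can pass. The Vegfa ratios of DAAO came nearest, with D_7138 at 2.80 above the rest.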

How the results depend on the processing

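The fall of Vegfa in the left ventricle and its difference between the ventricles kept their direction and stayed past the threshold in all 23 and 24 alternatives, at -1.01 to -0.71 and -1.05 to -0.90. The exact permutation tests among these gave unadjusted p-values, and that of the difference was added after seeing the data. With edgeR the left value was -0.90 and with DESeq2 -0.91. The right ventricular Vegfa value passed in none of 23, was highest with equal totals (0.33) and changed sign to -0.0087 with sample weights and -0.10 without animals C_7000 and C_7005. Hif1a passed the threshold with equal totals at 0.35 in the left and 0.51 in the right ventricle. In the right it also passed with sample weights (0.33, where 5293 of 13489 genes were called) and without C_7000 and C_7005 (0.35, where 4143 of 13494 were). Leaving out 1 animal gave 0.20 to 0.37 there. The cause was not tested. The 391 genes whose effect differed became 1101 with sample weights, 744 with DESeq2, 236 without C_7000 and C_7005, 85 to 616 without 1 animal and 1360 with the replicate block, which changed neither member's call. With deposited values in place of shares the median left-to-right ratio was 1.41 for Hif1a in CTL, 1.258 in DAAO, and 2.68 for Vegfa in DAAO. Equal totals moved the higher and lower calls from 2430 and 2805 to 4325 and 1631 in the left, from 1684 and 1890 to 3802 and 933 in the right ventricle, and from 209 and 182 to 121 and 265 for the difference.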
